A study of Mus musculus with 54 samples.

Results

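The 34 genes described here encode the absorptive machinery of the small intestinal enterocyte: the brush border skeleton, its hydrolases, the transporters for sugars, peptides and amino acids, the ion and water transporters, the lipid and retinoid carriers, and the ileal uptake of bile acids and vitamin B12. They were listed by function, with earlier results of these data known, from 20665 protein-coding autosomal genes. DNA methylation at these genes was measured by MeDIP-seq, in which fragments carrying 5-methylcytosine are pulled down with an antibody and sequenced, so that the read count of a region measures captured methylated DNA. All animals were 15 to 19 weeks old. The 46 libraries fall into 15 groups by strain and tissue. Intestinal adenomas and normal intestinal mucosa came from mice with the Min allele of the tumour suppressor Apc, which are heterozygous for it, and a further set of normal mucosa came from Apc wild type mice. The mice were C57BL/6 (B6), the wild-derived strain PWD/Ph (PWD), which descends largely from another mouse subspecies, the F1 hybrid of both (B6xPWD), B6 mice with chromosome 5 of PWD (C5), the F1 of B6 with C5 (C5F1) and an F1 of B6 with a strain carrying PWD chromosomes 1 and 5 (C1_5F1). Adenoma was sampled in 5 B6, 3 B6xPWD, 3 C5, 3 C5F1 and 2 C1_5F1 libraries, normal mucosa of Apc Min mice in 3, 3, 3, 3 and 2, and wild type mucosa in 4 B6, 3 B6xPWD, 3 C5, 3 C5F1 and 3 PWD libraries. PWD was sampled as wild type only. The labels do not say which libraries share an animal, so p-values measure the spread between these libraries.

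Enterocytes arise from stem cells in the crypts and acquire their brush border, a dense array of microvilli, as they move up the villus. Loss of Apc activates Wnt signalling and holds intestinal epithelial cells in a crypt-like state, and adenomas of Apc Min mice are known to hold few mature absorptive cells. Methylation of a CpG island at a start site is a mark generally associated with silent genes, whereas methylation in a gene body is common in expressed genes. Expression was not measured in these libraries. In bulk tissue a change in the mix of cell types and a change within a cell type cannot be told apart.

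Counts in windows of 250 bp were summed over the 5′ end of each gene, from 1000 bp before to 500 bp after the annotated start, and separately over the rest of the gene with 1000 bp on either side, called the body. The start was taken from RefSeq promoters for 31 of the 34 genes, and for Apoc3, Mep1b and Car1 from the CpG-richer end of the gene. The MeDIP libraries held between 8358806 and 27842607 counts over all chromosomes, and 29 of the 34 5′ ends and all 34 bodies had enough reads to be tested. Levels are given as CPM, counts scaled to a common number of autosomal reads per library, and as CPM per kb where genes are compared.

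The start sites of enterocyte genes are mostly poor in CpG. The deposited CpG density score of the 5′ ends had a median of 3.86 over the 34 genes and of 9.32 over all genes, and 3 of the 34 reached a score of 10, which 47.2% of all genes did. These 3 were Ezr, which encodes the linker ezrin between actin and membrane (22.6), Car4, a membrane-bound carbonic anhydrase (13.1), and Slc9a3, the sodium/proton exchanger NHE3 (10.3). Counted in the 300 bases of each RefSeq promoter (250 before to 50 after the start), the median was 4 CpG sites over 31 of the genes, with a range of 1 to 38, and 14 over 16457 genes. At most 5 CpG sites were found in 19 of the 31 promoters and in 31.5% of all promoters. The promoters of 4 genes are shown because captured DNA differed between tissues or strains at their 5′ end (Slc9a3, Car4, Cdhr2) or body (Rbp2). They are from RefSeq on GRCm38.p6 and run 5′ to 3′ on the strand of the gene with every CpG dinucleotide in capitals: Slc9a3 at chr13:74121163-74121462 (+ strand), Car4 at chr11:84957504-84957803 (+ strand), Cdhr2 at chr13:54701213-54701512 (+ strand) and Rbp2 at chr9:98490287-98490586 (+ strand).
Slc9a3: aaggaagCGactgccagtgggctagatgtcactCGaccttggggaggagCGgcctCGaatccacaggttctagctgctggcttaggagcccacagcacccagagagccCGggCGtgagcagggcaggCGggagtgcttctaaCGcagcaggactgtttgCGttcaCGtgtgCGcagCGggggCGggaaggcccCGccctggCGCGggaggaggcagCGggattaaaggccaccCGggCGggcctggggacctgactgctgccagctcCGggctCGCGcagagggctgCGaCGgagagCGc
Car4: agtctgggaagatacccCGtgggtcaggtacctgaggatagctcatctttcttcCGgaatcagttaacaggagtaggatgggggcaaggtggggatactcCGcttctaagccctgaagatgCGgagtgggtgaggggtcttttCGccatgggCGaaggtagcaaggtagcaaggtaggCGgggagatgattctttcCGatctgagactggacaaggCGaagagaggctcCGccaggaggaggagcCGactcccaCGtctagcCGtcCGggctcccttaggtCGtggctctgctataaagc
Cdhr2: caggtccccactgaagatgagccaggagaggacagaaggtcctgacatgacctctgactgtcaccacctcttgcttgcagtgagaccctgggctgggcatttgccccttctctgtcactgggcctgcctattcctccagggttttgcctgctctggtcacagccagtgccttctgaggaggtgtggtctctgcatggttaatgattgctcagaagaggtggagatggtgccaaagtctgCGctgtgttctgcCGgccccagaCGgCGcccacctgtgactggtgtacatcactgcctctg
Rbp2: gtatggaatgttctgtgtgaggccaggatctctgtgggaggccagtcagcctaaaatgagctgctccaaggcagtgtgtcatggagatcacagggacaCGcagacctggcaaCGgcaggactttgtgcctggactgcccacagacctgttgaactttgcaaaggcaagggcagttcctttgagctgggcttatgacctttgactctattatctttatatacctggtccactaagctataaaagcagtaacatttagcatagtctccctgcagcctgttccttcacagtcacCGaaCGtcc
The Slc9a3 promoter holds 25 CpG sites and 25.5% of all promoters hold as many or more. Car4 has 15, Cdhr2 4 and Rbp2 4. The single windows that passed between PWD and B6 at the Cdhr2 and Car4 5′ ends lay upstream of the printed bases. They were at chr13:54700251-54700750 and chr11:84957001-84957250.

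In B6 wild type mucosa the 5′ ends of these genes carried a median of 0.300 CPM per kb, against 0.191 over all genes, and the bodies 0.640, against 0.530. The body was above the 5′ end in 28 of the 34 genes and in 73.4% of all genes. The highest 5′ end was that of Slc5a1, the sodium-glucose cotransporter SGLT1, at 1.11 ± 0.28 CPM per kb (SD, n = 4). It was followed by Anpep, the brush border aminopeptidase N (0.959 ± 0.084), Cdhr2, a protocadherin that links microvillus tips (0.914 ± 0.406), Apoc3 (0.883 ± 0.098) and Apob (0.872 ± 0.096). Apoc3 and Apob encode apolipoproteins of chylomicrons and other triglyceride-rich particles. These 5 overlap within their SD and their order is not resolved. The lowest were Sis, sucrase-isomaltase (0.0508 ± 0.0683), Fabp1, the liver-type fatty acid binding protein (0.0933 ± 0.0266), and Lct, lactase (0.104 ± 0.085).

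**Figure D1:**
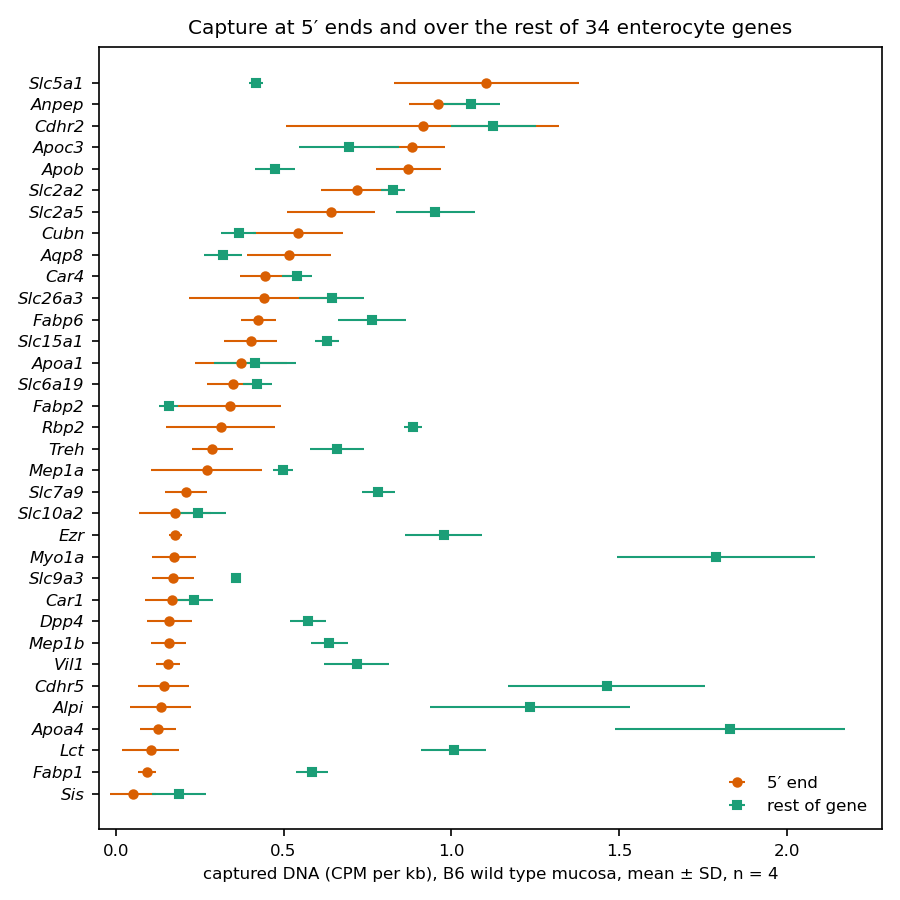
Captured DNA per kb at the 5′ end (circles) and over the body (squares) of the 34 genes in B6 wild type mucosa, as mean ± SD of 4 libraries, ordered by the 5′ end. The 5′ end lies below the body in 28 genes, and Myo1a, Apoa4 and Cdhr5 show the widest distance.

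Bodies ranged from 0.157 ± 0.028 CPM per kb at Fabp2, the intestinal fatty acid binding protein, to 1.83 ± 0.34 at Apoa4, an apolipoprotein of chylomicrons. Myo1a, the myosin that ties the actin core of a microvillus to its membrane, stood at 1.79 ± 0.30 in its body and at 0.173 ± 0.065 at its 5′ end. Villin (Vil1), which bundles that core, had 0.718 ± 0.097 and 0.155 ± 0.035. The dip was centred on the start: over the 31 genes with a RefSeq start, the median window held 0.237 CPM per kb at 2 kb before the start and 0.0985 at the start, and over all 16457 such genes 0.183 and 0.0483.

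Adenoma was compared with Apc Min normal mucosa, weighting the 5 strains equally. A single member passed the test in the main setting. The 5′ end of Slc9a3 was higher in adenoma, and no other 5′ end, no body and no single window among the 34 genes passed. Members that did not pass are not shown to be unchanged. The calls at Slc9a3, Rbp2 and Ezr depended on the setting or on single libraries, as given below. Slc9a3 (gene ID 105243) encodes the apical exchanger that takes up sodium from the gut lumen, and its 5′ end covers chr13:74120251-74122000 around a start at 74121413 on the + strand. The annotated gene spans 74086255 to 74169442, so that this start lies within the span.

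In B6 the 5 adenomas had 0.597, 0.855, 1.20, 1.24 and 1.71 CPM at the Slc9a3 5′ end. The 3 Apc Min normal libraries had 0.158, 0.227 and 0.243 CPM, and the 4 wild type libraries 0.206, 0.248, 0.288 and 0.455. Every B6 adenoma lay above every B6 normal and wild type library. Adenoma and normal libraries of B6 did not overlap at 585 of 13336 tested 5′ ends (4.39%), among them Slc9a3 and Rbp2. In B6xPWD the adenomas had 0.196, 0.640 and 1.45 CPM and the normal libraries 0.0486, 0.179 and 0.244. In C5 they had 0.176, 0.400 and 0.581 against 0.0558, 0.190 and 0.235. These groups overlapped, with 1 adenoma of each strain at the level of normal mucosa. In C5F1 the adenomas had 0.399, 0.407 and 0.878 CPM against 0.124, 0.222 and 0.331, with no overlap. In C1_5F1 the adenomas had 0.207 and 1.04 CPM against 0.197 and 0.391, so that 1 of the 2 was high.

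**Figure D2:**
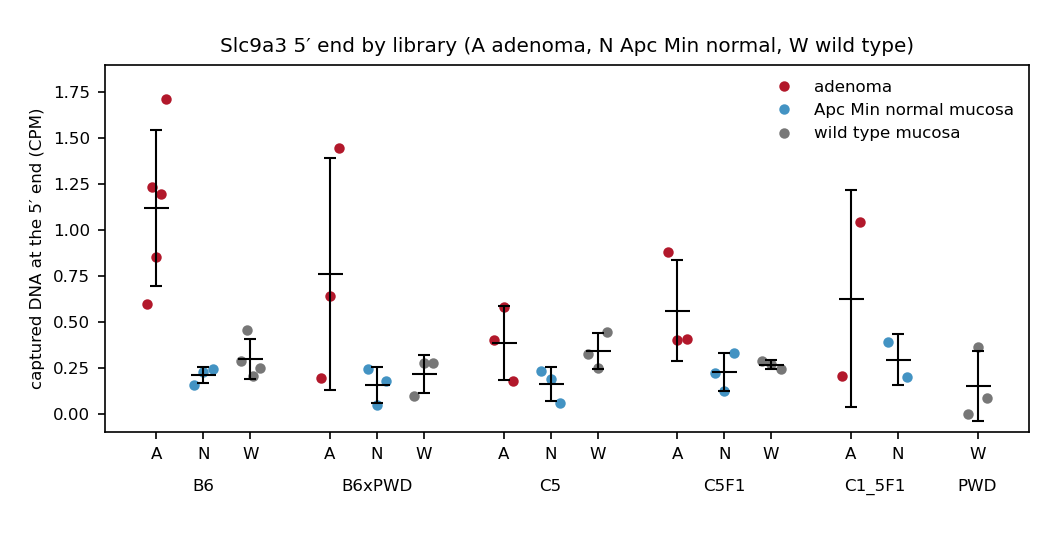
Captured DNA at the Slc9a3 5′ end (CPM) in each of the 46 libraries by strain and tissue, as points with the mean and SD of the group. B6 adenomas lie between 0.597 and 1.71 CPM, and all Apc Min normal libraries lie at or below 0.391.

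Over the 5 strains the 16 adenomas had a median of 0.618 CPM (0.176 to 1.71), the 14 normal libraries 0.209 (0.0486 to 0.391) and the 13 wild type libraries of the strains other than PWD 0.275 (0.0974 to 0.455). The log2 difference of adenoma from Apc Min normal mucosa was 1.57 ± 0.29 (SE), with an adjusted p of 0.00536 by edgeR over all 5′ ends. This was 1 of 29 members tested, and 7 of 13336 5′ ends passed (0.0525%). The minimum count of 10 for testing was reached in adenoma libraries alone. Apc Min normal libraries held at most 6 reads and wild type libraries at most 9. Slc9a3 thus entered the test through the group in which it was high. Without this filter the difference was 1.57 (adjusted p = 0.0031 by edgeR). In B6 alone, with the filter, the difference was 2.32 ± 0.45 (adjusted p = 0.0312), the only 1 of the 13336 tested 5′ ends that passed in that strain (0.0075%). The difference was 2.13 ± 0.59 in B6xPWD (adjusted p = 0.397), 1.33 ± 0.57 in C5F1, 1.20 ± 0.64 in C5 and 0.87 ± 0.83 in C1_5F1 (adjusted p = 0.999 in each of these 3), and a test of the difference between strains gave an adjusted p of 1. The body of Slc9a3, which also holds the part of the annotated gene before the start used here, gave -0.04 ± 0.03 (adjusted p = 1). The call over 5 strains was lost when the C1_5F1 adenoma 5_4, the MeDIP library with the lowest depth, was left out (log2 1.31, adjusted p = 0.65). Without B6xPWD library 11_6, whose labels disagree on Apc Min or wild type, it was 1.65 (adjusted p = 0.00474). With C1_5F1 left out as a whole the difference was 1.75 (adjusted p = 0.000442). The call in B6 alone was lost without adenoma 2_1 (adjusted p = 0.102), 4_2 (0.116) or 9_3A (0.114), without normal library 4_3 (0.198), 9_2 (0.546) or 9_4 (0.0855), and with DESeq2 (0.201), while the log2 difference stayed between 2.11 and 2.48.
The share of reads in CpG-dense windows, a measure of how strongly a library was enriched, ran from 4.18% to 7.76% in adenoma and from 4.06% to 6.82% in normal mucosa, and with that share as a covariate the difference was 1.57 (adjusted p = 0.000182). Libraries whose label began with the same number could be compared in 10 pairings of strain and number, and adenoma was higher in 9 of them. The exception was number 11 in B6xPWD (0.196 against 0.244 CPM). The pairings use the libraries in which Slc9a3 passed and are no separate test. In B6 and C5F1, where adenoma and normal libraries did not overlap, their direction was fixed in advance.

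By window, the tissues differed most in the CpG-rich part of the 5′ end. In the window chr13:74121501-74121750, centred 212.5 bp after the start, 66 reads were found in the 16 adenomas, 1 read in the 14 normal libraries and 7 in the 13 wild type libraries, and 14 of the 16 adenomas had at least 1 read. The window centred 37.5 bp before the start, the CpG-richest with a score of 24.3, had 45, 6 and 2 reads, and the next one upstream had 23, 0 and 1. These are the windows of this 5′ end with a score above 10, and the promoter sequence printed above lies in the upstream pair. The next window downstream, centred 462.5 bp after the start with a score of 8.67, had 47, 22 and 25 reads, or 0.166, 0.0767 and 0.0934 CPM. Farther out the tissues were closer: the window centred 787.5 bp before the start had 20, 22 and 30 reads and that centred 712.5 bp after it 112, 95 and 107. As a single window the first passed no threshold (adjusted p = 0.0868 over 1172069 windows). It held at least 10 reads only in the B6 adenomas 4_2 (10) and 9_3A (13). It was thus tested through the group in which it was high. Narrowing the 5′ end to 500 bp before and 250 bp after the start raised the log2 difference to 3.24 (adjusted p = 0.000158), and widening it to 2000 bp either side lowered it to 0.15 (adjusted p = 1).

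**Figure D3:**
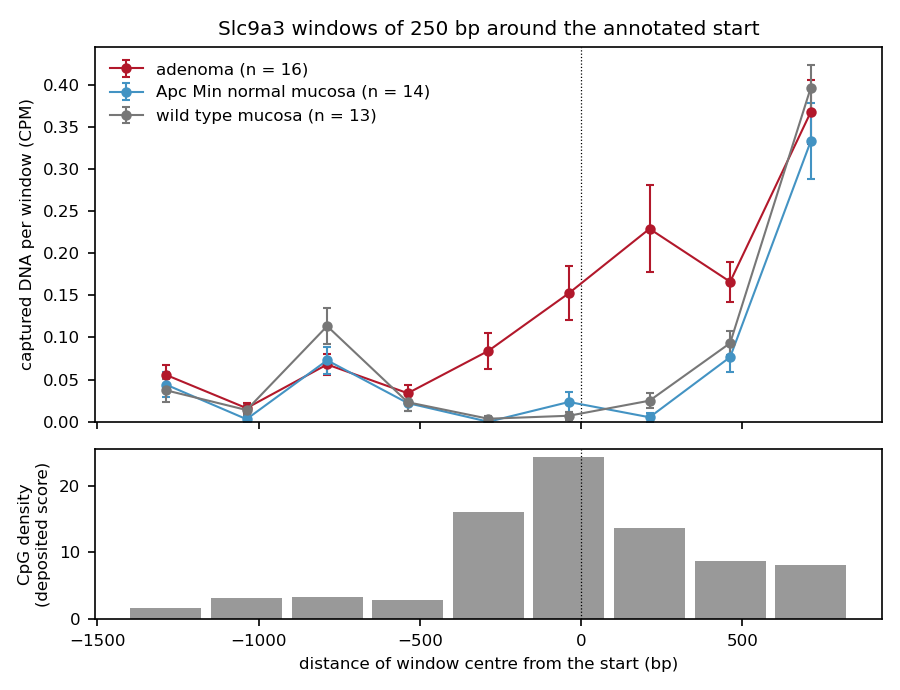
Mean captured DNA (CPM, bars show the standard error over libraries) in 250 bp windows by distance from the Slc9a3 start, for adenoma, Apc Min normal and wild type mucosa of the strains other than PWD, above the deposited CpG density of each window. Adenoma is highest in the 3 windows of highest CpG density and in the next one downstream (0.166 CPM against 0.0767 and 0.0934), and the tissues are closer at both ends.

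At the other 28 tested 5′ ends no difference passed. Over the 29 tested, 17 differences were above 0 with a median log2 of 0.06, and over all 5′ ends 50.8% were above 0 with a median of 0.003. Among the transporters, Slc5a1 had the lowest p after Slc9a3, at 0.36 ± 0.12 (adjusted p = 0.585). Its level was 1.87 CPM in the median adenoma (1.07 to 2.75), 1.36 in normal (0.977 to 2.18) and 1.59 in wild type mucosa (0.958 to 2.65), and the ranges overlapped widely. Slc6a19, the main transporter of neutral amino acids, gave 0.43 ± 0.19, Slc10a2, the ileal bile acid transporter, 0.42 ± 0.25 and Fabp6, the bile acid binding protein inside the same cells, 0.26 ± 0.16. The lowest p among the negative differences were those of Slc2a2, the basolateral glucose transporter GLUT2 (-0.15 ± 0.12), Car4 (-0.14 ± 0.15), Alpi, intestinal alkaline phosphatase (-0.26 ± 0.29), and Cdhr5, the partner of Cdhr2 in the links between microvilli (-0.18 ± 0.24). None of these passed, and 1 library moved several of them by over 1.5 times: Alpi was -1.24 without C1_5F1 adenoma 5_2, -0.13 without adenoma 5_4, -0.10 without C1_5F1 normal library 5_1 and -0.42 without C5 adenoma 12_5. Car4 was -0.22 without C1_5F1 normal library 5_1 and -0.016 without 5_3, and Slc2a2 was -0.093 without 5_1. Cdhr5 was -0.094 without B6 normal library 9_4, -0.10 without B6xPWD normal library 11_6 and -0.10 without C5F1 adenoma 16_11. Slc10a2 was 0.28 and Fabp6 0.10 without C1_5F1 adenoma 5_2, and Fabp6 0.17 without normal library 5_3. By role, differences above 0 were found at 3 of 4 tested genes of brush border structure, 2 of 5 hydrolases, 2 of 3 sugar transporters, 1 of 3 peptide and amino acid transporters, 2 of 5 ion and water genes, 4 of 6 lipid and retinoid genes and 3 of 3 ileal genes. Ezr, Lct, Sis, Mep1b and Fabp1 had too few reads at the 5′ end to be tested.

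Over the bodies all 34 genes were tested and 0 passed with edgeR, against 6 of 19135 (0.0314%). DESeq2 also called 0, and 4 members had an unadjusted p under 0.05. These were Rbp2, the cellular retinol binding protein of enterocytes, Fabp6, Slc5a1 and Slc7a9, a light chain of the cystine transporter. The Rbp2 body had a median of 16.2 CPM in adenoma (14.1 to 18.2), 18.3 in normal (15.3 to 21.1) and 17.2 in wild type mucosa (13.8 to 20.3), a log2 difference of -0.14 ± 0.04 between adenoma and normal (adjusted p = 0.246). In B6 the adenomas had 15.8, 15.9, 15.9, 16.4 and 17.2 CPM and the normal libraries 18.8, 19.8 and 21.1, without overlap, as at the Mep1b body and at 3.54% of all bodies. The Rbp2 body over 5 strains passed with the CpG-dense share as a covariate (-0.15, adjusted p = 0.0132) and without the B6xPWD adenoma 11_5 (-0.16, adjusted p = 0.0445). The Fabp6 body had a median of 4.87 CPM in adenoma (4.09 to 5.57), 4.12 in normal (3.20 to 4.78) and 4.21 in wild type mucosa (3.16 to 5.45), a difference of 0.25 ± 0.07 (adjusted p = 0.291). Slc5a1 and Slc7a9 gave 0.08 ± 0.03 and 0.08 ± 0.04 (adjusted p = 1 for both). The next bodies by p were Vil1 (0.12 ± 0.08) on the positive side and Car1, a cytosolic carbonic anhydrase (-0.09 ± 0.08), and Ezr (-0.05 ± 0.06) on the negative side. The Ezr body passed with the CpG-dense share as a covariate (-0.095, adjusted p = 0.0334).
Of 830 tested windows in these genes 0 passed with edgeR (45 at an unadjusted p under 0.05), against 0.000939% of all windows. The lowest p after that of Slc9a3 was at Rbp2, in a CpG-dense window of the body at chr9:98498751-98499000. In B6 it held 1.18, 1.39, 1.41, 1.96 and 1.97 CPM in adenoma, 2.79, 3.31 and 3.47 in normal and 2.46 to 3.01 in the 4 wild type libraries, and adenoma lay below both. Over 5 strains the difference was -0.53 ± 0.12 (adjusted p = 0.365). By strain it was -0.98 ± 0.22 in B6, -0.84 ± 0.36 in C1_5F1, -0.41 ± 0.25 in C5F1, -0.38 ± 0.25 in C5 and -0.05 ± 0.26 in B6xPWD. The next windows by p lay in Anpep and Slc26a3, the chloride/bicarbonate exchanger (0.84 ± 0.27 and 0.81 ± 0.27), and in Dpp4, dipeptidyl peptidase 4, and Ezr (-1.15 ± 0.39 and -0.69 ± 0.25), all with an adjusted p of 1.
Within strains, no body and no window of the 34 genes passed with edgeR in any of the 5 (0.0314% of all bodies and 0.000768% of all windows in B6), and no 5′ end did in B6xPWD, C5, C5F1 or C1_5F1, where 3, 0, 2 and 1 members were at an unadjusted p under 0.05 and DESeq2 made 0 calls. DESeq2 called the Rbp2 body in B6 (adjusted p = 0.0493), which edgeR did not (-0.29 ± 0.07, adjusted p = 0.11).

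**Figure D4:**
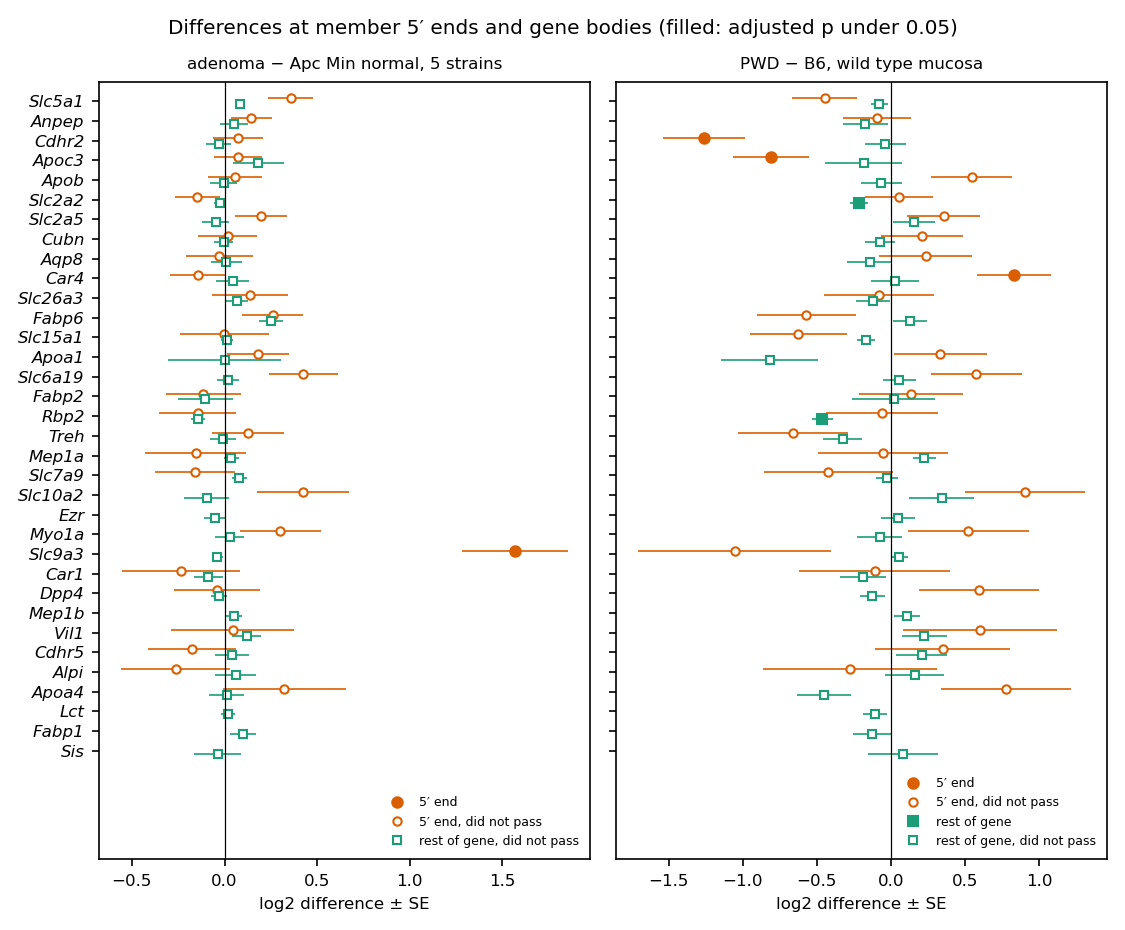
Log2 difference ± SE at the 5′ end (circles) and over the body (squares) of the 34 genes, for adenoma against Apc Min normal mucosa over 5 strains (left) and PWD against B6 wild type mucosa (right). Filled symbols passed at an adjusted p under 0.05: Slc9a3 on the left, and Cdhr2, Apoc3 and Car4 (5′ ends), Rbp2 and Slc2a2 (bodies) on the right.

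As the background of the adenoma comparison, the normal libraries of Apc Min animals were set against those of wild type mucosa over 4 strains. With edgeR 0 of 29 5′ ends and 0 of 34 bodies passed (0% of all features in both), 2 and 1 were at an unadjusted p under 0.05, and none was called by DESeq2 (0 of each kind). Slc9a3 gave -0.53 ± 0.34 at its 5′ end (adjusted p = 0.999). Of 50 further genes of absorption and the brush border, 35 5′ ends and 46 bodies were tested in adenoma and 0 passed, with 3 of each at an unadjusted p under 0.05. Their median differences were 0.0581 and 0.0019. Among markers of immune, stromal, muscle and endothelial, secretory and stem cells 0 passed in adenoma as well, at 39 5′ ends and 42 bodies tested.

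PWD and B6 differ in sequence, and reads of both were placed on the B6 reference, so that a difference in methylation and a difference in sequence or in mapping cannot be told apart in this comparison. In wild type mucosa the 5′ ends of Cdhr2 and Apoc3 were lower in PWD and that of Car4 was higher. Cdhr2 had 1.01, 1.18, 1.61 and 2.60 CPM in the 4 B6 libraries and 0.638, 0.683 and 0.683 in the 3 PWD libraries. All PWD libraries lay below all B6 libraries, with a log2 difference of -1.26 ± 0.28 (adjusted p = 0.000666). Car4 had 0.625, 0.720, 0.859 and 0.910 CPM in B6 and 1.21, 1.36 and 1.64 in PWD, without overlap, a difference of 0.83 ± 0.25 (adjusted p = 0.0164). Apoc3, a brake on lipoprotein lipase, had 1.39, 1.44, 1.57 and 1.78 CPM in B6 and 0.607, 0.680 and 1.41 in PWD, where 1 PWD library reached the B6 range, a difference of -0.81 ± 0.26 (adjusted p = 0.0244). These were 3 of 29 tested members (10.3%), and 12.3% of all 5′ ends passed. Groups did not overlap at 5 members (Cdhr2, Slc15a1, Car4, Apoa4 and Apob) and at 20.1% of all 5′ ends. Car4 was lost without B6 wild type library 10_1 (adjusted p = 0.0642) or PWD library 11_2 (0.103), with DESeq2 (0.0605) and with 2000 bp either side of the start (0.384). Apoc3 was lost without B6 library 4_5 (0.0779) or PWD library 11_1 (0.225) or 16_9 (0.155), with DESeq2 (0.0701) and with 2000 bp either side (0.0978).

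The bodies of 2 of 34 genes passed (5.88%), against 8.84% of all bodies. Rbp2 had 17.2, 17.2, 17.3 and 18.3 CPM in B6 and 12.6, 12.7 and 12.7 in PWD, a difference of -0.46 ± 0.07 (adjusted p = 1.5e-05). Slc2a2 had 24.0, 26.0, 26.1 and 26.3 CPM in B6 and 21.8, 21.9 and 22.5 in PWD, a difference of -0.21 ± 0.06 (adjusted p = 0.0199). In both genes PWD lay below every B6 library, as 17.2% of all bodies did in one direction or the other. Slc2a2 was lost without B6 library 4_4 (adjusted p = 0.0554) or PWD library 11_1 (0.09) or 16_9 (0.0696). Without B6 library 16_8, 5 bodies passed in place of 2, and with the CpG-dense share as a covariate 16 did. In the single pair of libraries numbered 16, PWD was lower than B6 at Cdhr2 (0.638 against 1.01 CPM), Apoc3 (0.680 against 1.57), Rbp2 (12.6 against 17.2) and Slc2a2 (21.9 against 26.0) and higher at Car4 (1.36 against 0.859). This pair is no separate test. At Cdhr2, Rbp2, Slc2a2 and Car4 the groups did not overlap, so that any pair has these directions.

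At the scale of single windows 149 of 830 passed (18%), against 20.8% of all windows. In PWD 53 were higher and 96 lower, against 7.98% and 12.8% of all windows. They were spread over 28 of the 34 genes, with the most in Cubn, the vitamin B12 receptor cubilin (7 higher and 13 lower of 80), Lct (3 and 11 of 57), Dpp4 (4 and 9 of 49) and Slc15a1, the peptide transporter PEPT1 (4 and 8 of 39). None of the 36 tested windows of Myo1a passed.

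**Figure D5:**
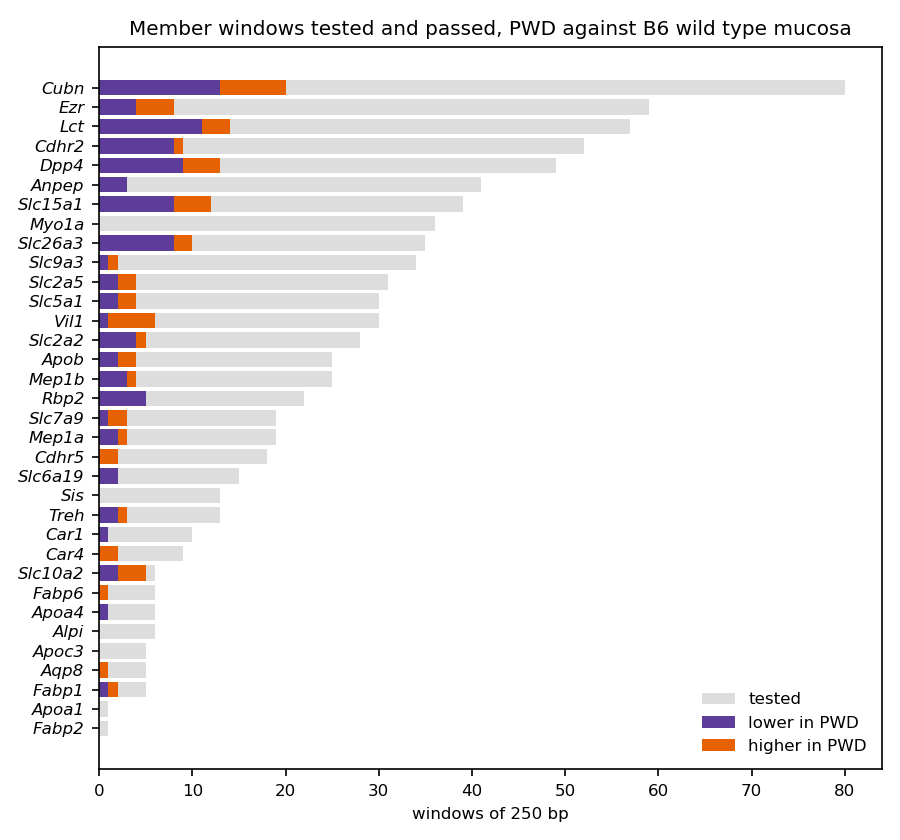
Number of 250 bp windows tested in each of the 34 genes (grey) and passing as lower (purple) or higher (orange) in PWD than in B6 wild type mucosa. Cubn has the most windows tested and passed, and the 36 windows of Myo1a hold none that passed.

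Among the windows that were lower in PWD, that in the Lct body at chr1:128316001-128316250 held 0.601 ± 0.127 CPM in B6 (n = 4) and 0 reads in all 3 PWD libraries, at least 14.0-fold lower against a floor of 3 reads over the PWD libraries. The Cdhr2 body window at chr13:54709751-54710000 held 1.56 ± 0.42 CPM in B6 and 0.061 ± 0.072 in PWD (log2 -4.61 ± 0.46, adjusted p = 3.59e-12). Body windows of Slc15a1, Dpp4 and Fabp1 gave -4.58 ± 0.55, -4.39 ± 0.55 and -3.11 ± 0.48. The Rbp2 window that had the lowest p in adenoma after that of Slc9a3 was also lower in PWD, with 2.46, 2.65, 2.66 and 3.01 CPM in B6 and 0.689, 0.700 and 0.709 in PWD (-1.93 ± 0.27, adjusted p = 7.98e-08). Among those that were higher, Slc10a2 at chr8:5095251-5095500 held 0.116 ± 0.080 CPM in B6 and 1.12 ± 0.20 in PWD (3.20 ± 0.42, adjusted p = 8.08e-09). Vil1, Cubn, Slc2a2, Slc26a3 and Slc15a1 gave 3.81 ± 0.60, 3.14 ± 0.52, 2.07 ± 0.39, 1.86 ± 0.29 and 1.65 ± 0.26. The Cubn window held 0.653 CPM in PWD library 11_2, 0.689 in 16_9 and at most 0.415 in any other library. It reached the minimum count for testing through PWD alone, the group in which it was high. At the Vil1 window only B6xPWD adenoma 18_2 (0.625 CPM) lay above 0.444 outside PWD.

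Apc Min tissue of B6xPWD and B6 was read at the same windows. The levels of these libraries did not enter the difference of PWD from B6. They shared the filter, the scaling and the estimate of the spread with it, in the same model. Of the 149 windows, 134 had the same sign in B6xPWD against B6, and 30 passed, all 30 with the same sign. The like shares over all windows that passed in PWD were not taken, so these counts are not shown to be particular to these genes. No Apc Min library of B6xPWD shared the first number of its label with one of B6. Strain and that number cannot be told apart in this comparison. Over all 830 windows of these genes 52 passed in B6xPWD against B6 (6.27%), against 6.98% of all windows. The Cdhr2 5′ end gave -0.77 and the Rbp2 body -0.20 in this comparison (adjusted p = 0.00928 and 0.0166), against 4.69% of all 5′ ends and 3.08% of all bodies. The Car4 5′ end gave 0.08 (adjusted p = 0.905) and that of Apoc3 -0.52 (adjusted p = 0.0744). Cdhr2 was lost without the B6xPWD adenoma 16_6 (adjusted p = 0.0545), and Rbp2 without the B6 normal library 9_4 (0.0656) or the B6xPWD libraries 16_6 (0.0887), 18_2 (0.0559) or 16_5 (0.06).
On a scale set by B6 and PWD wild type mucosa, B6xPWD lay near the middle. The libraries that set this scale also chose its windows, and no further PWD library shows how far its PWD end is off. At the windows with a log2 difference of at least 1 outside chromosomes 1 and 5 (35 higher and 77 lower in PWD), the summed level was placed on a scale on which B6 wild type is 0% and PWD 100%. B6xPWD wild type mucosa lay at 50.2% ± 4.6 for the higher windows and 51.9% ± 1.9 for the lower windows (SD, n = 3), its normal Apc Min mucosa at 50.4% ± 9.4 and 52.4% ± 0.5 and its adenoma at 44.3% ± 5.8 and 51.4% ± 1.6. Apc Min libraries of B6, whose levels did not enter the difference of PWD from B6, lay at 7.67% ± 7.32 and 12.9% ± 6.4 in normal mucosa and 10.8% ± 4.1 and 13% ± 9.1 in adenoma. The C5 and C5F1 groups, whose labels give PWD chromosome 5 alone, lay between 4.30% and 12.1% for the higher windows. For the lower windows they lay between 10.6% ± 6.2 (C5F1 wild type) and 20.7% ± 3.8 (C5F1 normal mucosa).

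Slc5a1 is the only one of the 34 genes on chromosome 5, which C5 mice carry from PWD. Of 12 windows that passed in C5 against B6 Apc Min tissue, of 830 tested and against 1.61% of all windows, 6 lay in Slc5a1, 3 higher and 3 lower in C5. The other 6 lay in Cubn, Dpp4, Sis, Slc2a5 and Slc10a2 on other chromosomes. The window at chr5:33103001-33103250, at the upstream edge of the Slc5a1 5′ end, held 0.290, 0.351, 0.352 and 0.708 CPM in B6 wild type mucosa, 0.0394, 0.0933 and 0.129 in PWD and 0, 0.0451 and 0.146 in C5. The F1 hybrids had 0.270, 0.277 and 0.311 CPM in B6xPWD and 0.132, 0.214 and 0.232 in C5F1. PWD and C5 lay below every B6 library, B6xPWD reached the B6 range and C5F1 that of C5. In PWD against B6 the difference was -2.24 ± 0.58 (adjusted p = 0.0022). In Apc Min tissue the 3 C5 adenomas had 0 reads, at least 9.48-fold below B6 adenoma against a floor of 3 reads over the group, and C5 passed as lower than B6 (adjusted p = 3.16e-07). Libraries outside B6 held at most 0.395 CPM in this window. It reached the minimum count for testing through B6 alone, the strain in which it was high.
A second window, at chr5:33134501-33134750 in the body, held 1.29 ± 0.39 CPM in B6 (n = 4), 0.542 ± 0.093 in PWD and 0.710 ± 0.089 in C5 (n = 3 each), and passed in both comparisons (-1.25 ± 0.28, adjusted p = 0.000457, and -1.26 ± 0.21, adjusted p = 1.88e-05). The 3 windows that were higher in C5 lay in the body, at chr5:33133251-33133500 (1.55 ± 0.40, adjusted p = 0.0181), chr5:33152251-33152500 (0.90 ± 0.18, adjusted p = 0.000808) and chr5:33158251-33158500 (1.61 ± 0.26, adjusted p = 7.74e-06). The remaining lower window, at chr5:33119001-33119250, gave -1.04 ± 0.26 (adjusted p = 0.0152). In PWD against B6, 2 windows of Slc5a1 were higher and 2 lower. The higher windows were at chr5:33121501-33121750 (1.93 ± 0.62, adjusted p = 0.0157) and chr5:33135251-33135500 (1.35 ± 0.45, adjusted p = 0.0224). The former was lost without B6 library 10_1 (adjusted p = 0.0801) or PWD library 11_1 (0.0538) or 11_2 (0.0521), the latter without B6 library 16_8 (0.102) or PWD library 11_2 (0.0721).
The 5′ end of Slc5a1 as a whole did not pass in PWD (-0.45 ± 0.22, adjusted p = 0.204). In wild type mucosa its mean was 1.93 ± 0.48 CPM in B6 (n = 4), 1.69 ± 0.09 in C5F1, 1.45 ± 0.20 in B6xPWD, 1.44 ± 0.20 in PWD and 1.22 ± 0.31 in C5 (n = 3 each). Neighbours in this order overlapped within their SDs. In adenoma the means ran from 1.42 ± 0.46 in C5 to 2.13 ± 0.39 in B6 (n = 3 and 5). In normal Apc Min mucosa they ran from 1.22 ± 0.27 in C5 to 1.67 ± 0.46 in B6 (n = 3 each). By mean, C5 was the lowest and B6 the highest of the strains in each tissue. Their Apc Min libraries overlapped: C5 reached 1.94 CPM in adenoma and 1.505 in normal mucosa, and B6 began at 1.716 and 1.286. The order of the strains is not resolved.

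Of the 50 further enterocyte genes, 3 of 35 5′ ends and 4 of 46 bodies passed in PWD against B6, where 12.3% of all 5′ ends and 8.84% of all bodies did. Abcg2, an efflux pump of the apical membrane (2.02 ± 0.43, adjusted p = 0.000426), and Plb1, a brush border phospholipase (0.97 ± 0.25, adjusted p = 0.00417), were higher at the 5′ end. Apoc2, the activator of lipoprotein lipase, was lower (-1.12 ± 0.34, adjusted p = 0.0166). The bodies of Fabp5, Myo5b, Slc7a8 and Stx3 were lower, between -0.14 and -0.55.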

How the data were processed

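MeDIP-seq read counts were deposited by the authors as whole-number counts per 250 bp window of the mouse genome, per the file headers, for 46 MeDIP libraries and 1 input library. The authors deposited beside them a CpG density score per window, without its scale. Reads were placed with BWA on mm10, per the submitters' processing notes, with no version stated. CPM measures captured DNA, not percent methylation. The X and Y chromosomes, 1 further MeDIP library (C5F1 wild type 12_10) and 6 further inputs were not used here. For B6xPWD library 11_6 the MeDIP name gives Apc Min normal mucosa and the input name wild type, and the MeDIP name was followed.

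From the counts, 5′ ends and bodies of 20665 genes were summed. Starts came from RefSeq for 16457 genes and from the CpG-richer gene end for 4208. Features with a minimum count of 10 (filterByExpr) were tested with edgeR 4.0.16 in R 4.3.3 (TMM scaling, quasi-likelihood test, 15 groups in 1 model), with Benjamini-Hochberg adjustment over all features of a kind and a threshold of 0.05. DESeq2 1.42.0 was an alternative, beside other 5′ widths, scaling, higher minimum counts (20 for windows, 30 for genes), windows shared with another gene left out, the CpG-dense share (score of at least 10) as a covariate, the first label number as a block and each library left out. The scripts were tested on simulated data. Depth ranged from 8358806 to 27842607 counts over all chromosomes per MeDIP library and was 7533091 in the input. The floor of 3 reads used for groups at 0 covers counting error only.

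The members and lists were chosen with earlier results of these data known. Described by name were the members that passed, the 4 5′ ends and 4 bodies per direction with the lowest p in adenoma, up to 6 windows per direction in PWD and 3 in adenoma by lowest p with 1 per gene, and Slc5a1 in every group.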

Additional observations from a re-analysis of the deposited data

Results flagged for a closer look

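In 4 of 40 groups of B6 libraries examined at the named genes, 1 library stood apart from the rest by Dixon's test, where chance flags about 1 in 20 groups. All were bodies in wild type mucosa. Library 4_5 had 24.0 CPM at Slc2a2, against 26.0 to 26.3 in the other 3, and 18.3 CPM at Rbp2, against 17.2 to 17.3. Library 16_8 had 12.8 CPM at Slc7a9, against 14.5 to 14.6, and library 4_4 had 28.4 CPM at Slc9a3, against 30.3 to 30.6.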

How the results depend on the processing

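Of the counts of members that passed, 152 alternatives stayed within 1.5 times the main count and 23 did not, apart from those that left out 1 library, where 239 did and 12 did not. Many main counts were 0, and a 0 that stayed 0 is among those that stayed. These totals therefore do not show how stable the other counts were. In adenoma over 5 strains, the 5′ ends that passed went from 1 to 0 with 2000 bp either side of the start and with libraries 11_6 and 5_4 left out together (chosen after seeing the data), and ranged from 0 to 1 with each library left out. The bodies went from 0 to 2 with the CpG-dense share as a covariate and ranged from 0 to 1. In B6 alone the 5′ ends went from 1 to 0 with 2000 bp either side and with DESeq2 (0 to 1 with each library left out), and the bodies from 0 to 2 with the covariate and to 1 with DESeq2. In B6xPWD the 5′ ends went from 0 to 1 with the narrower 5′ end. In PWD against B6 the 5′ ends went from 3 to 1 with the narrower 5′ end and to 1 with DESeq2 (2 to 3 with each library left out), the bodies from 2 to 16 with the covariate and to 4 without shared windows (1 to 5), and the windows from 149 to 57 at a minimum count of 20 (101 to 136). At that minimum the windows went from 52 to 21 in B6xPWD against B6 and from 12 to 7 in C5 against B6. The cause was not tested.

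The labels do not say what the first number of a library marks, so it is not known to pair libraries. The number differed between strains. Apc Min libraries had 2, 4, 9 and 10 in B6, 11, 16 and 18 in B6xPWD and 12 and 16 in C5. In these strain comparisons number and strain cannot be told apart. PWD (11 and 16) and B6 wild type (4, 10 and 16) shared 16 alone. With the number as a replicate block, the members that passed were 1 5′ end in B6xPWD adenoma and 2 windows each in adenoma of B6 and of all strains. In PWD against B6 they were 0 5′ ends, 9 bodies and 88 windows, and in B6xPWD and in C5 against B6 0 windows. The Slc9a3 5′ end over 5 strains gave 1.68 with the block. In PWD against B6 the block gave -0.775 at the Cdhr2 5′ end (adjusted p = 0.325), 0.543 at Car4 (0.477) and -0.91 at Apoc3 (0.162), none of which passed. The Slc5a1 windows at 33103001, 33121501 and 33134501 gave -1.702 (0.256), 1.616 (0.329) and -0.64 (0.413). In B6xPWD against B6 the Cdhr2 5′ end gave -0.225 (0.899) and the Rbp2 body -0.218 (0.26). The windows that passed with the block in adenoma over 5 strains were those named at Slc9a3 and Rbp2 (adjusted p = 0.00867 for both).

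Among single genes, 3 small adenoma differences at 5′ ends that had not passed changed sign. Alpi became 0.039 with 2000 bp either side and 0.021 without C1_5F1, Cdhr5 became 0.046 and 0.021, and Slc10a2 became -0.035 with 2000 bp either side. The 5′ ends of 5 members had too few reads to be tested.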
